A study of Homo sapiens with 6 samples.

Results

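The replication-dependent histone genes are the genes that supply core and linker histones to newly copied DNA. They were taken by symbol from the count table as H1-1 to H1-5 and every H2AC, H2BC, H3C or H4C gene with a number, pseudogenes left out, which gave 65 of 42656 rows. By class these are 5 linker H1, 16 H2A, 17 H2B, 13 H3 and 14 H4 genes. All 65 were matched to a GENCODE 29 gene, 54 of them on chromosome 6 and 11 on chromosome 1.

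The samples are 6 libraries of the established cell line TOV21G, which was derived from a clear cell carcinoma of the ovary. The shCtrl arm carries a lentiviral scramble hairpin and the shMEX3A arm a lentiviral hairpin against MEX3A, an RNA-binding protein with a RING domain, with 3 libraries and 1 hairpin per arm. Both arms received virus at an MOI of 50, were kept in medium with 15% serum for no more than 25 passages, and harvested for RNA on day 3, and mRNA libraries were made with a KAPA mRNA kit. The design has 1 comparison, the effect of the MEX3A hairpin on mRNA levels, and the series title concerns mitochondrial fitness. Whether the 3 libraries of an arm stem from 3 cultures is not stated, so a p-value here reflects only the variation among these libraries, which may be technical.

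Most of these genes lie in clusters, lack introns and are transcribed in S phase, in step with DNA synthesis. Their mRNAs as a rule end in a conserved stem-loop instead of a poly(A) tail. The stem-loop is bound by SLBP, and the transcript is cut downstream of it with the help of the U7 particle, and the mRNAs are degraded when DNA synthesis stops. Many H2A and H2B genes stand head to head and share the stretch between their start sites. A poly(A)-based mRNA kit catches such transcripts only in part, chiefly those that did acquire a tail, so the counts below describe captured histone RNA. A change in the amount of histone mRNA and a change in the tailed share cannot be told apart here.

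The stem-loops are shown first because, among the members, they set the H4 genes apart from the other core histone genes. The consensus of the histone stem-loop, 16 bases that open with GG and close with CC, was searched from the stop codon onward in the GENCODE 29 models, and 28 members had it, 22 to 67 bases after the stop codon. For 34 members the model has no 3' untranslated region of 50 bases, and 3 others had such a region without a match. The capitals mark the 2 arms of the stem and the lower-case letters its loop.
Shared by 15 H2A, H2B and H3 members, among them H2AC6, H2BC21 and H3C10: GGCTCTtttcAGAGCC
Shared by H2BC4, H2BC5, H2BC7 and H3C8: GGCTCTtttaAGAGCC
H3C6: GGCTCTtctcAGAGCC
Shared by H4C2, H4C5, H4C8 and H4C11: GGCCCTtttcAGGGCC
Shared by H4C9, H4C14 and H4C15: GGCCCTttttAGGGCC
H2AC11: GGCTCTtttcAGGGCC
Every H4 stem-loop found had the arm with CCC. Those of the H2A, H2B and H3 members had the arm with CTC, apart from H2AC11. That gene mixes both and so has 5 pairs where the other 27 members have 6. Outside the members, the variant gene H2AX has a stem-loop with the CCC arm. On GRCh38 the H2AC6 stem-loop lies at chr6:26124669-26124684 on the plus strand, 43 bases past the stop codon, and the H2BC21 stem-loop at chr1:149886188-149886203 on the minus strand, 56 bases past it. The RefSeq gene ends within 10 bases of the stem-loop in 21 of the 28 members and runs more than 100 bases past it in 6. H2BC4, H2BC5, H2BC21, H3C6 and H4C15 are among those 6, and all 5 were called higher in shMEX3A below. The remaining gene, H2BC18, had too few counts to be tested. Of all 21 tested members 15 were called higher, and of all tested genes 34.0%. The annotation used for the deposited counts is not given in the sources used here, so which reads past a stem-loop were counted is not known. Of the 42656 rows, 41709 carry a symbol that RefSeq lists, and 14034 rows have a LOC symbol.

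The next sequences are the stretches between 2 head-to-head pairs, shown because both pairs carry the same kinds of promoter letters while their genes moved differently. They are RefSeq sequence on GRCh38.p14, plus strand, and in each the H2B gene starts at the left on the minus strand and the H2A gene at the right on the plus strand. The capitals mark every match, on either strand, to the octamer ATTTGCAT, the CCAAT box and the TATA box TATAAA, and no 2 matches overlap.
H2BC21 to H2AC20, chr1:149886683-149886917: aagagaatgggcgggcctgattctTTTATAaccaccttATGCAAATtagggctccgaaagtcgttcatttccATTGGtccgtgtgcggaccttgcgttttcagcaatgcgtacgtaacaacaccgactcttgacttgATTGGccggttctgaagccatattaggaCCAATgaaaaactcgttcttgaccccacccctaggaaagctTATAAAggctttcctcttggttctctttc
H2BC4 to H2AC6, chr6:26123927-26124171: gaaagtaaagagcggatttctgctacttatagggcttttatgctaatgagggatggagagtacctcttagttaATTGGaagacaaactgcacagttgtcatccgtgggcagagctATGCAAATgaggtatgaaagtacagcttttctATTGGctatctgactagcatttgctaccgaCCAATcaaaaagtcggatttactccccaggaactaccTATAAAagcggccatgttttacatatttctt
Each stretch held 1 octamer and 3 CCAAT boxes, with 2 TATA boxes in the first and 1 in the second. RefSeq promoters were taken from 250 bases before to 50 bases after the start. In these the octamer stood in 11 of 15 H2A and 14 of 17 H2B promoters. It stood in 1 of 11 H3 promoters, and in 0 of 5 H1 and 0 of 12 H4 promoters. The H3 promoter is that of H3C4, whose RefSeq start (26199293, minus strand) is also that of H2AC7. In the 10 head-to-head pairs the starts are at most 248 bases apart, so a match between them counts for both genes. Among 15843 protein-coding promoters of the same length 1.70% held the octamer. A CCAAT box stood in every H1, H2A, H2B and H3 promoter and in 3 of 12 H4 promoters, against 36.4% of all. TATAAA stood in 41 of the 60 member promoters, against 9.63% of all. These are letter matches and say nothing of whether a factor was bound.

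The targeted gene and the libraries were checked before the histone genes. MEX3A stood at 69.0 ± 1.54 CPM in shCtrl and at 20.9 ± 1.31 CPM in shMEX3A, with a log2 fold change of -1.72 (edgeR quasi-likelihood test, adjusted p = 1.52e-28). CPM, the unit of level used throughout, are TMM-scaled shares of a library and not amounts per cell. Library totals ran from 34662635 to 48228216 counts. Of the markers of the line, PAX8, KRT8 and KRT18 were above 150 CPM in every library, and NAPSA was below 1 CPM in all 6 libraries. The fibroblast list summed to 584 to 596 CPM in shCtrl and to 1248 to 1284 CPM in shMEX3A, nearly all of it COL1A2 and COL1A1, with LUM, COL3A1 and PDGFRB below 0.3 CPM. The leukocyte list summed to 7.46 to 8.63 and to 10.4 to 11.0 CPM with CD3E and MS4A1 at 0, and the endothelial list was below 1 CPM with KDR and CLDN5 at 0. The part of these collagens in the histone results was not tested. In bulk RNA, fewer cells of a kind and less RNA per cell cannot be told apart.

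Captured histone RNA was higher in the shMEX3A libraries in each of the 5 classes. Summed over all 65 members, it made up 69.2, 65.4 and 68.4 CPM in shCtrl and 136, 137 and 143 CPM in shMEX3A. The arms did not overlap, and the mean was 2.04-fold higher, from 67.7 ± 2.00 to 138 ± 4.12 CPM (SD, n = 3 each). These sums count every member, whether or not it passed a filter, and carry no test because the members were chosen with results of these data known.

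The sums stayed apart in each class. H1 stood at 19.6, 17.3 and 20.4 CPM in shCtrl and at 37.4, 36.2 and 39.9 CPM in shMEX3A, a 1.98-fold higher mean. H2A stood at 25.2, 26.0 and 23.1 CPM against 49.3, 51.0 and 52.1 CPM, 2.05-fold higher. H2B stood at 18.8, 16.5 and 18.8 CPM against 39.3, 39.2 and 41.2 CPM, 2.22-fold higher, and 1.90-fold higher when H2BC21 was left out of the sum. H3 and H4, the histones that form the central tetramer of the nucleosome, had few counts in these libraries. The H3 sum was 3.20, 3.16 and 3.49 CPM against 5.13, 5.73 and 5.10 CPM, 1.62-fold higher. The H4 sum was 2.45, 2.45 and 2.72 CPM against 4.43, 4.40 and 4.81 CPM, 1.79-fold higher. Differences in fold between classes were not tested.

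**Figure D1:**
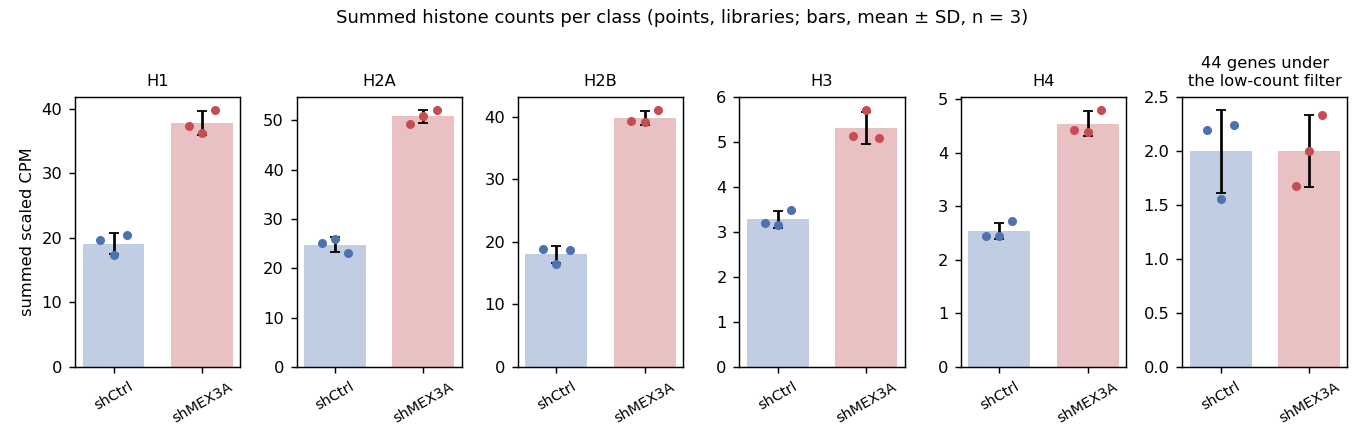
Summed scaled CPM (linear axes from 0, one panel per class) of all members of H1, H2A, H2B, H3 and H4 and of the 44 members under the low-count filter; points are libraries, bars are means and error bars SDs over 3 libraries. In each class the 3 shMEX3A libraries lie above the 3 shCtrl libraries, and the sums of the 44 weak members overlap.

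A few genes carried most of these counts. H2AC6 held 30.3% of all member counts over the 6 libraries, H1-2 27.2%, H2BC5 11.6% and H2BC21 8.11%, so 4 genes made up 77.1%. The shares differed between arms, as H2BC21 held 5.64% in shCtrl and 9.29% in shMEX3A, and in shCtrl H2BC4 with 6.59% was above it. H2AC6 and H1-2 were nearly level in shCtrl, at 27.9% and 27.6%, and stood at 31.4% and 27.0% in shMEX3A. H1-2 alone gave 98.5% of the H1 counts and H2AC6 gave 82.6% of the H2A counts. The other classes were spread more widely, with H2BC5 at 41.3% of H2B, H3C10 at 43.4% of H3 and H4C15 at 57.7% of H4. These are shares of counts and not per length, so they do not rank the genes by transcript number.

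Of the 65 members 17 were listed at 0 in all 6 libraries, and 21 had enough counts to be tested. The filter asks for about 0.247 CPM in at least 3 libraries. Of these 21 genes 15 were higher in shMEX3A and 1 was lower at an adjusted p under 0.05 (edgeR quasi-likelihood test), and 5 were not called. Among all 15679 tested genes 69.7% were called, 34.0% higher and 35.6% lower. In 16 of the 21 the scaled CPM of the arms did not overlap, which held for 72.3% of all tested genes (35.4% higher and 36.9% lower). The median log2 fold change over the 21 was 0.87, against -0.0080 over all tested genes. Without the low-count filter 48 members had a value and the median was 0.57, with 15 higher and 1 lower, against 20.4% higher and 22.4% lower of all genes in that fit. Of those 15, 14 were also called with the filter, H4C8 was no longer called, and H4C4, a gene under the filter, was.

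The filter itself can favour a gene that is high in 1 arm. H2AC15 and H3C4 were over the limit in all libraries of the shMEX3A arm alone, and H4C5 reached it in 1 shCtrl and 2 shMEX3A libraries. Among the 18 members over it in every library, 14 were higher, 1 was lower and 3 were not called. Because the members are mostly weak, they can also be set beside weak genes in general. Of the 21, 16 had a mean under 5 CPM, with 10 higher, 1 lower and 5 not called, while 28.7% of the 4835 tested genes under that mean were higher and 21.4% lower.

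**Figure D2:**
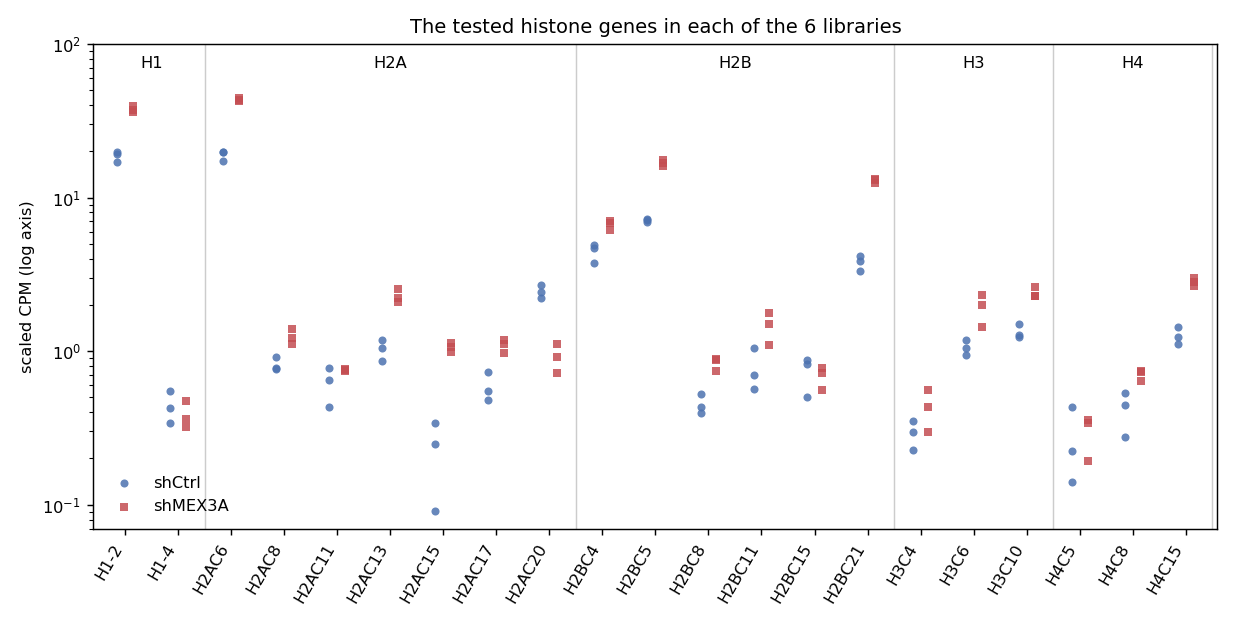
Scaled CPM (log axis) of the 21 tested histone genes in each of the 3 shCtrl (circles) and 3 shMEX3A (squares) libraries, grouped by class. The shMEX3A points lie above the shCtrl points in 15 genes and below them in H2AC20, and they overlap in H1-4, H2AC11, H2BC15, H3C4 and H4C5.

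H1-2 is the linker histone that gave nearly all H1 counts. It stood at 19.1, 17.0 and 19.9 CPM in shCtrl and at 37.0, 35.8 and 39.4 CPM in shMEX3A. The arms were far apart, and the gene rose by a log2 fold change of 1.00 (SE 0.056, adjusted p = 4.13e-18). H1-4, another somatic linker histone, stood at 0.549, 0.338 and 0.424 CPM against 0.363, 0.318 and 0.472 CPM. Its arms overlapped and its log2 fold change of -0.22 was within error (SE 0.357, adjusted p = 0.593). Of the other 3 H1 genes, 2 were listed at 0 throughout.

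Among the H2A genes 5 of 7 tested rose, 1 fell and 1 was not called. H2AC6, on chromosome 6 from 26124172 to 26124690 on the plus strand, stood at 19.8, 19.8 and 17.2 CPM in shCtrl and at 42.5, 43.3 and 44.4 CPM in shMEX3A. All shMEX3A values were more than 2.0-fold the highest shCtrl value, and the log2 fold change was 1.20 (SE 0.053, adjusted p = 1.51e-21). Fewer than 1% of the 50-base windows of its model occur in another gene.

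H2AC13 stood at 0.869, 1.18 and 1.05 CPM in shCtrl and at 2.08, 2.55 and 2.21 CPM in shMEX3A (log2 fold change 1.15, SE 0.194, adjusted p = 2.02e-06). The arms did not overlap, but 62.3% of its 50-base windows also occur in H2AC14, which was listed at 0 in all 6 libraries. How reads that fit both genes were counted is not known. H2AC8 stood at 0.915, 0.762 and 0.773 CPM against 1.11, 1.21 and 1.39 CPM and rose by 0.59 on the log2 scale (SE 0.235, adjusted p = 0.0264). That call was lost when shCtrl replicate 2 or 3, or shMEX3A replicate 2 or 3, was left out, with adjusted p from 0.0504 to 0.0925. Other settings that ended it were DESeq2 (adjusted p = 0.0597) and a correction for GC content and length (adjusted p = 0.0533). H2AC11 stood at 0.435, 0.649 and 0.773 CPM against 0.751, 0.743 and 0.767 CPM, with overlapping arms (log2 fold change 0.29, SE 0.291, adjusted p = 0.380).

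The other H2A genes that rose overlap exons of a neighbour in GENCODE 29, but their RefSeq spans do not overlap that neighbour. H2AC15 stood at 0.0915, 0.338 and 0.249 CPM in shCtrl and at 0.993, 1.13 and 1.06 CPM in shMEX3A. The arms did not overlap, and the log2 fold change of 2.26 was the highest among the tested members (SE 0.347, adjusted p = 4.04e-07). All of its exon bases in GENCODE 29 lie under H2BC15 on the opposite strand. With that annotation, reads could be told apart only by the strand setting of the counting, which is not known. The RefSeq spans of H2AC15 (27837880 to 27838375) and H2BC15 (27838569 to 27839110) do not overlap. H2AC17 stood at 0.732, 0.480 and 0.549 CPM against 0.969, 1.19 and 1.12 CPM (log2 fold change 0.88, SE 0.268, adjusted p = 0.00387). In GENCODE 29, 88.0% of its exon bases lie under H3C12 on the same strand. Its RefSeq span (27892699 to 27893185) does not overlap that of H3C12 (27890315 to 27890826).

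H2AC20 went the other way. It stood at 2.22, 2.71 and 2.42 CPM in shCtrl and at 0.920, 0.722 and 1.12 CPM in shMEX3A. All 3 shMEX3A values were below the lowest shCtrl value, with a log2 fold change of -1.43 (SE 0.199, adjusted p = 6.23e-08). It was the lone member called lower in the main test and in each of the alternatives tried for that count. On GRCh38 it covers bases 149886918 to 149887411 of chromosome 1 (plus strand). Of its 50-base windows 30.5% also occur in other models, chiefly those of H2AC18 and H2AC19, which had too few counts to be tested. The windows of H2AC18 (100%) and H2AC19 (97.1%) occur in other models, chiefly each other's, and how such reads were counted is not known.

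Among the H2B genes 5 of 6 tested rose and 1 was not called. H2BC21 stood at 3.89, 3.33 and 4.19 CPM in shCtrl and at 13.1, 12.4 and 13.0 CPM in shMEX3A, so that the arms were far apart. Its log2 fold change was 1.75 (SE 0.091, adjusted p = 1.58e-19), a 3.36-fold higher level. The RefSeq gene spans chromosome 1 from 149884459 to 149886682 on the minus strand and continues 1729 bases past its stem-loop. H2BC5 stood at 7.27, 7.16 and 6.93 CPM against 16.1, 16.7 and 17.5 CPM (log2 fold change 1.23, SE 0.073, adjusted p = 9.1e-18). H2BC4 stood at 4.89, 3.72 and 4.66 CPM against 6.13, 6.88 and 7.02 CPM (log2 fold change 0.58, SE 0.105, adjusted p = 7.15e-06). Neither gene had overlapping arms, and their RefSeq spans of 10757 (H2BC4) and 13229 bases (H2BC5) continue far past the stem-loop.

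The other H2B genes had fewer counts and have short spans. H2BC11 stood at 1.05, 0.564 and 0.698 CPM against 1.77, 1.10 and 1.50 CPM (log2 fold change 0.89, SE 0.248, adjusted p = 0.00184), with the arms just apart. H2BC8 stood at 0.435, 0.395 and 0.524 CPM against 0.872, 0.743 and 0.885 CPM (log2 fold change 0.87, SE 0.296, adjusted p = 0.00916). H2BC15, the opposite-strand neighbour of H2AC15, stood at 0.503, 0.874 and 0.823 CPM against 0.775, 0.722 and 0.561 CPM. Its arms overlapped and its log2 fold change of -0.07 was within error (SE 0.291, adjusted p = 0.836), with a sign that changed under some alternatives.

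Of the 13 H3 genes 3 were tested and 2 rose. H3C10 stood at 1.28, 1.24 and 1.50 CPM in shCtrl and at 2.28, 2.61 and 2.27 CPM in shMEX3A (log2 fold change 0.84, SE 0.176, adjusted p = 7.01e-05). H3C6 stood at 0.938, 1.18 and 1.05 CPM against 1.99, 2.34 and 1.45 CPM (log2 fold change 0.89, SE 0.207, adjusted p = 0.000268). In both genes every shMEX3A library was above every shCtrl library. H3C4 stood at 0.297, 0.226 and 0.349 CPM against 0.436, 0.297 and 0.561 CPM, with overlapping arms (log2 fold change 0.52, SE 0.385, adjusted p = 0.227), and its exons lie wholly within those of an overlapping model on the same strand.

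Of the 14 H4 genes 3 were tested and 2 rose. H4C15 stood at 1.12, 1.24 and 1.45 CPM in shCtrl and at 2.81, 2.68 and 2.98 CPM in shMEX3A (log2 fold change 1.15, SE 0.170, adjusted p = 1.97e-07). Its arms were far apart, but 97.2% of its 50-base windows also occur elsewhere, chiefly in H4C14, so the value may belong to either copy. H4C14 itself was listed with 1 count in all. H4C8 stood at 0.274, 0.536 and 0.449 CPM against 0.726, 0.637 and 0.738 CPM (log2 fold change 0.75, SE 0.321, adjusted p = 0.0371). This call was lost when any library other than shCtrl replicate 2 was left out, with adjusted p from 0.0564 to 0.199, with DESeq2 (adjusted p = 0.0879) and without the low-count filter (adjusted p = 0.0677). H4C5 stood at 0.435, 0.141 and 0.224 CPM against 0.194, 0.340 and 0.354 CPM, with overlapping arms (log2 fold change 0.10, SE 0.439, adjusted p = 0.843).

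**Figure D3:**
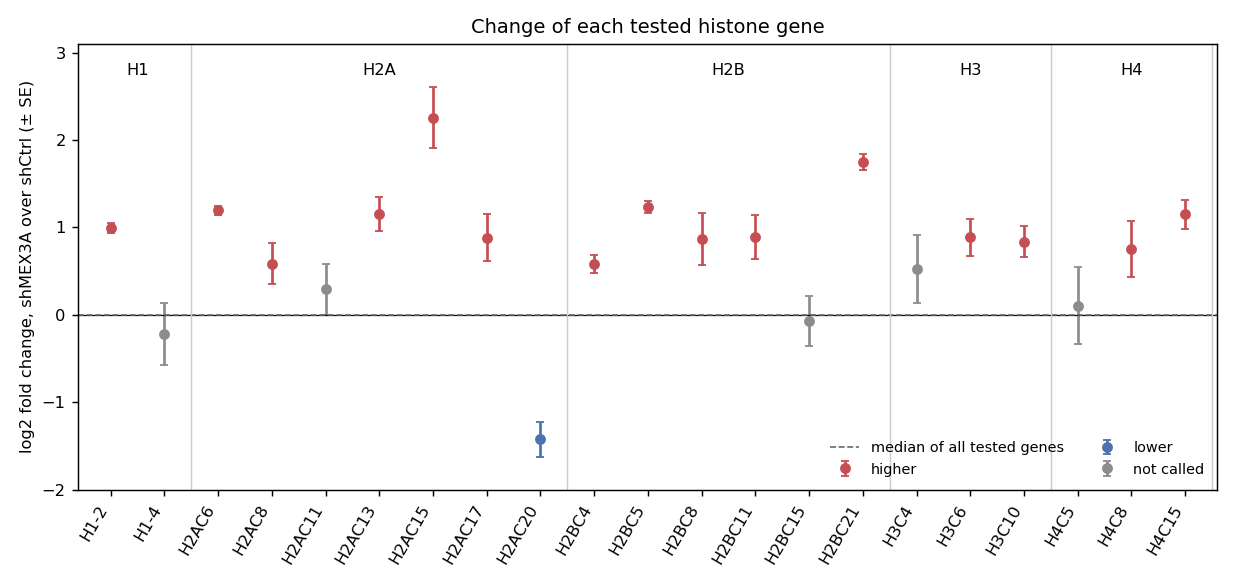
Log2 fold change (shMEX3A over shCtrl, error bars SE) of each tested histone gene by class, coloured by call at an adjusted p under 0.05; the dashed line is the median of all tested genes, at -0.0080. The 15 higher genes run from 0.58 (H2BC4) to 2.26 (H2AC15), and H2AC20 at -1.43 is the lone lower gene.

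The 21 tested members held 98.1% of member counts. Of the 44 that were not tested 27 had any count, with at most 15 counts in a library and 48 in all. Their sum was 2.20, 1.55 and 2.24 CPM in shCtrl and 1.67, 2.00 and 2.33 CPM in shMEX3A, with overlapping arms. H2BC18, H2BC17 and H3C2 had the most counts, and they did not share a direction. H2BC18 had 4, 5 and 7 counts in shCtrl and 6, 11 and 15 in shMEX3A. H2BC17 had 13, 5 and 10 counts in shCtrl and 3, 11 and 3 in shMEX3A, and H3C2 had 13, 6 and 8 against 4, 5 and 6. Without the low-count filter 27 of these members had a value and 1 was called, H4C4, with 4, 0 and 1 counts in shCtrl against 6, 10 and 7 in shMEX3A (adjusted p = 0.0328, edgeR). The arms were also apart in H4C9, which was higher in shMEX3A, and in H3C1 and H4C1, which were lower there, none of them called (adjusted p = 0.0707 to 0.0751). These 4 genes were chosen after their values were seen.

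Some members are near copies of each other, which bears on their single-gene values. In GENCODE 29 the 13 H3 genes encode 2 distinct proteins and the 14 H4 genes 2, while the 16 H2A genes encode 10, the 17 H2B genes 13 and the 5 H1 genes 5. At the level of the RNA the genes differ more, and 16 of the 21 tested genes had less than 50% of their exon sequence shared with, or under, another gene. Without the other 5 (H2AC13, H2AC15, H2AC17, H3C4 and H4C15) 11 of 16 were higher and 1 was lower, with a median log2 fold change of 0.79. When every member whose protein is identical to another member's was left out, 5 of 8 were higher.

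The length of the annotated gene was not used in the choice by symbol. RefSeq gene spans run from 386 to 29682 bases, and 6 of the 21 tested members exceed 1000 bases, as do 2 of the 44 untested members. Of those 6 genes 5 were higher (H2BC4, H2BC5, H2BC21, H3C6 and H4C15), with H3C4 not called. Of the other 15 tested genes 10 were higher. Among these, the RefSeq spans of H2AC6 and H3C10 end 6 and 5 bases past the stem-loop, while their GENCODE 29 models run 1128 and 769 bases past it. For some of the 15, such as H1-2, the GENCODE 29 model has no 3' untranslated region of 50 bases. Whether these genes have a stem-loop could therefore not be seen. The part of span length in these calls was not tested. A GENCODE 29 model that goes on for at least 100 bases past the stem-loop was found for 11 tested members, 8 of them higher. It was also found for 9 untested members. For comparison, 15 of all 21 tested members were higher, and 34.0% of all tested genes.

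Head-to-head genes offered a comparison within a shared promoter stretch. There are 10 such H2A and H2B pairs with starts 194 to 248 bases apart, and in 5 both genes were tested. H2AC6 and H2BC4 both rose, as did H2AC8 and H2BC8, and in H2AC11 and H2BC11 the H2B gene alone was called. H2AC15 was called higher and H2BC15 was not called, with the overlap of exons described above.

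H2AC20 and H2BC21, whose starts are 236 bases apart, moved in opposite directions. The ratio of H2BC21 to H2AC20 counts was 1.75, 1.23 and 1.73 in shCtrl and 14.3, 17.2 and 11.6 in shMEX3A. The mean ratio was 1.57 ± 0.296 in shCtrl and 14.4 ± 2.79 in shMEX3A. This pair was chosen after its values were seen, and the ratio carries no test of its own. For H2BC4 over H2AC6 the ratio was 0.247, 0.188 and 0.271 in shCtrl and 0.144, 0.159 and 0.158 in shMEX3A, so there the H2A gene rose by more while both rose.

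**Figure D4:**
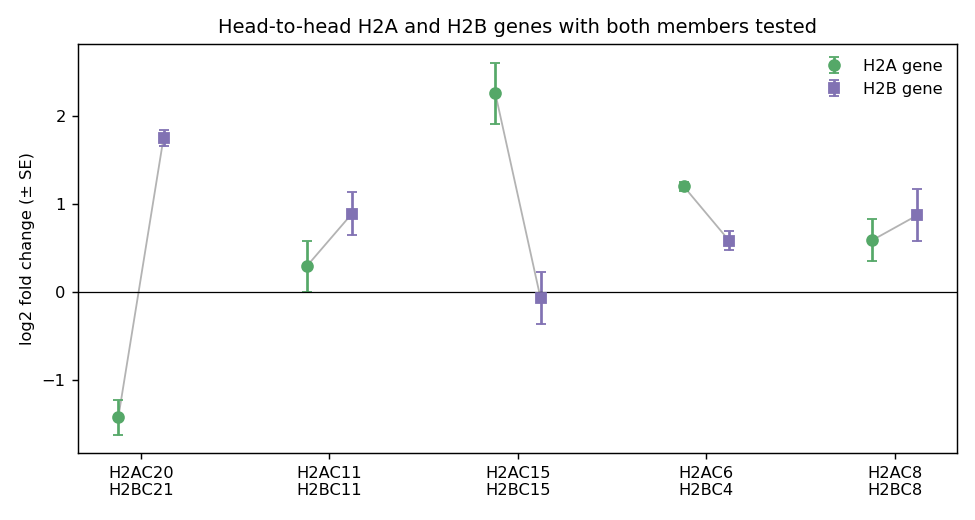
Log2 fold change (shMEX3A over shCtrl, error bars SE) of the H2A gene (circle) and the H2B gene (square) of the 5 head-to-head pairs with both genes tested, joined by a line. H2AC20 at -1.43 and H2BC21 at 1.75 lie on opposite sides of 0, while H2AC6 at 1.20 and H2BC4 at 0.58 are both above it.

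The histone genes that are expressed outside S phase did not follow the replication-dependent genes. Of 12 listed, 9 were tested, 7 fell, 0 rose and 2 were not called, with a median log2 fold change of -0.54, beside 34.0% higher and 35.6% lower of all tested genes. The linker histone H1-10 fell by 0.54 on the log2 scale (SE 0.043, adjusted p = 2.94e-09), whereas H1-2 had risen by 1.00. H2AZ1 and H2AZ2, which encode the variant H2A.Z found at promoters, fell by 0.46 and by 0.55. H3-3A, a gene for the replacement histone H3.3, fell by 0.68 from 144 ± 4.79 to 89.7 ± 1.62 CPM, while H3-3B, which encodes the same protein, stood at 434 ± 4.94 and 435 ± 4.39 CPM and was not called (log2 fold change 0.00, adjusted p = 0.920; higher by 0.06 after the GC and length correction, adjusted p = 0.0386).

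CENPA, the histone H3 of the centromere, fell by 0.92 (SE 0.075). MACROH2A1, a large H2A variant, was not called at 0.05 (adjusted p = 0.132), and was called higher when shCtrl replicate 1 (adjusted p = 0.0297) or shMEX3A replicate 1 (adjusted p = 0.0379) was left out, and with the filter of 1 CPM (adjusted p = 0.0486). H2AX had 0 to 15 counts and H2AJ 0 to 1 count per library, so neither was tested. Without the low-count filter H2AX, with 0, 4 and 1 counts in shCtrl against 7, 15 and 5 in shMEX3A, was called higher (adjusted p = 0.0137, edgeR). H2AW, an H2A gene of chromosome 1 that RefSeq now names with an H2AC number, stood at 13.2 ± 0.932 and 12.7 ± 0.370 CPM and was not called (log2 fold change -0.06, adjusted p = 0.450). Its model holds the same stem-loop as H2AC6, 40 bases after the stop codon. By its symbol in the count table it lies outside the members and the H2A sum, with 3118 counts over all libraries. Among the H2A members only H2AC6 had more, at 7557, so the H2A fold and count shares above leave out a well-counted gene that was not called.

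Of 13 genes for histone gene transcription 3 were higher, 4 lower and 6 not called, shares not above the 34.0% higher and 35.6% lower of all tested genes. NPAT, the coactivator of the histone locus body, stood at 9.38, 10.1 and 11.8 CPM in shCtrl and at 10.3, 11.4 and 9.15 CPM in shMEX3A and was not called (log2 fold change -0.01, adjusted p = 0.907, with a sign that varied between settings). CDK2, the kinase that phosphorylates NPAT, was not called either (-0.07, adjusted p = 0.193). Its cyclins differed, as CCNE2 fell by 1.33 (SE 0.138, adjusted p = 8.12e-11) and CCNE1 was higher by 0.20 (SE 0.068, adjusted p = 0.0172). The CCNE1 call was lost without shCtrl replicate 2 or 3 or shMEX3A replicate 2 or 3, with adjusted p from 0.0638 to 0.0832. YY1, a zinc finger factor, fell by 1.10 and TRRAP, a scaffold of histone acetyltransferase complexes, rose by 0.48.

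Among genes for the 3' ends of histone mRNA 9 of 18 fell, 3 rose and 6 were not called, beside 35.6% lower and 34.0% higher of all tested genes. SLBP, which binds the stem-loop, stood at 69.5, 67.9 and 65.4 CPM in shCtrl and at 49.5, 49.5 and 48.7 CPM in shMEX3A (log2 fold change -0.46, SE 0.039, adjusted p = 2.74e-13). LSM11, a ring protein particular to the U7 particle, stood at 12.2, 10.8 and 13.1 CPM against 6.34, 6.24 and 4.81 CPM (log2 fold change -1.04, SE 0.094, adjusted p = 2.96e-11). In both genes the arms did not overlap, and both moved opposite to the 15 histone genes that rose. CASP8AP2, a protein of the histone locus body, fell by 0.48 and ZNF473, a partner of the U7 particle, fell by 0.28, while LSM10, the partner of LSM11, was not called (0.08, adjusted p = 0.222). NCBP2 of the cap-binding complex fell by 0.78 and SRRT, which bridges it to histone processing, rose by 0.44.

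Of 12 decay genes 4 were higher, 4 lower and 4 not called, shares near the 34.0% higher and 35.6% lower of all tested genes. ERI1, the exonuclease that trims the stem-loop, fell by 0.35 (SE 0.063, adjusted p = 7.68e-06), and PNRC2, a decapping partner of UPF1, rose by 0.44. UPF1 itself was not called (0.03, adjusted p = 0.400), and was lower after the GC and length correction (log2 fold change -0.22, adjusted p = 6.55e-09). TUT7, a terminal uridylyltransferase, was not called (adjusted p = 0.923). Genes for ordinary cleavage and polyadenylation had 7 of 18 higher and 8 lower, also near those shares. The poly(A) polymerase PAPOLA fell by 0.82 and the poly(A)-binding PABPC4 rose by 0.69.

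Genes that carry and copy with histones were mostly lower. Of 23 chaperones and importers 17 fell, 3 rose and 3 were not called, with a median log2 fold change of -0.39. ASF1A and ASF1B, which hand H3 and H4 on to other chaperones, fell by 0.65 and by 0.44. CHAF1B of the assembly factor CAF-1 fell by 0.70, and its partner CHAF1A was not called (adjusted p = 0.786), with a lower value of -0.15 after the GC and length correction (adjusted p = 0.00159). NASP, which keeps a reserve of H3 and H4, fell by 0.45, DAXX, a chaperone of H3.3, by 0.87, and HJURP, the chaperone of CENPA, by 1.46 (SE 0.051, adjusted p = 5.13e-25). HIRA, also for H3.3, fell by 0.10 (adjusted p = 0.0116), a call lost without shMEX3A replicate 1 (adjusted p = 0.0545). RBBP7 fell by 1.30 and CABIN1, a partner of HIRA, rose by 0.66.

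Of 32 S phase genes 29 fell, 0 rose and 3 were not called, with a median log2 fold change of -0.54. RRM2, a subunit of ribonucleotide reductase, stood at 104, 103 and 101 CPM in shCtrl and at 53.9, 58.7 and 56.5 CPM in shMEX3A (log2 fold change -0.87, SE 0.038, adjusted p = 6.4e-22). POLD3, a subunit of DNA polymerase delta, fell by 1.15. PCNA, the sliding clamp, was lower by a log2 fold change of -0.17 (SE 0.036, adjusted p = 0.000116), which became 0.04 and was not called after the GC and length correction (adjusted p = 0.327). The shares called lower among chaperones and S phase genes can be set beside the 35.6% of all tested genes that were lower. The 15 histone genes that rose did so in the same libraries in which these 29 S phase genes fell.

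**Figure D5:**
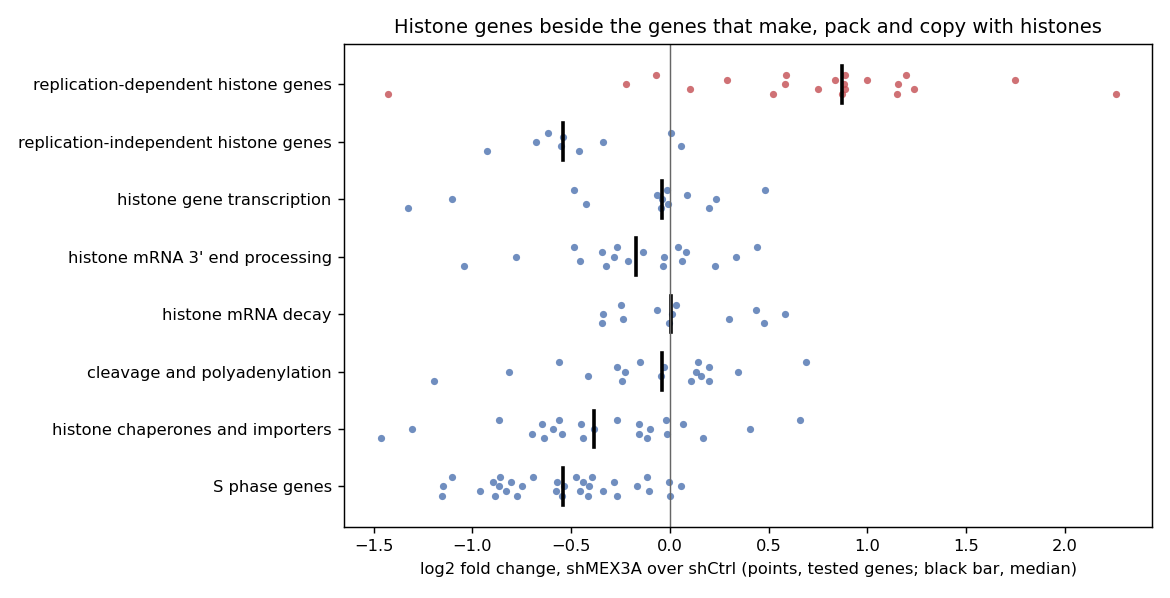
Log2 fold change (shMEX3A over shCtrl) of every tested gene of each list, one row per list, with the replication-dependent histone genes on top; points are genes and black bars are medians. The histone median is 0.87, the medians of the replication-independent histones and the S phase genes are both -0.54, and that of the chaperones is -0.39.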

How the data were processed

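RNA of 6 libraries was compared, 3 per arm. The authors deposited raw read counts per gene as whole numbers. The submitters' processing notes name GRCh38 and, without role or order, the tools STAR, HTSeq 2.0.4, fastp 0.20.0 and edgeR 4.0.16. For the strand setting and the treatment of reads that fit several copies, the sources used here give nothing.

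Counts of all 42656 rows entered the fit with edgeR 4.0.16 in R 4.3.3: filterByExpr, TMM scaling, a robust quasi-likelihood fit with 4 residual degrees of freedom, and Benjamini-Hochberg adjustment over 15679 tested genes with a threshold of 0.05. SEs come from the F statistic. The script was tested on simulated data. Levels are TMM-scaled CPM. Within an arm, libraries differed by 2.69 to 6.15 chi-square per degree of freedom, so none was a duplicate.

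Members and gene lists were chosen with earlier results of these data known. Named genes are MEX3A, every tested member, the 3 untested members with most counts, a set of known regulators, and in each list the called gene with the smallest p per direction. H2AW was added after its values were seen. A few genes that this rule names are not reported here. Stem-loops and exon overlaps come from GENCODE 29 and promoters from RefSeq (GRCh38.p14), which had 60 of the 65 members. Alternatives were other scaling, filters and tests (DESeq2 1.42.0, limma 3.58.1 voom), GC and length offsets, the replicate block, members left out and each library left out.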

Additional observations from a re-analysis of the deposited data

How the results depend on the processing

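Over all alternatives 285 values of single histone genes kept their direction and their side of the threshold, 13 lost a call (H2AC8 and H4C8) and 8 changed sign (H2BC15 and H4C5, not called in any fit). The median log2 fold change of the tested members, 0.87, became 0.57 with no low-count filter, 0.96 with at least 1 CPM in 3 libraries (12 tested), 0.96 with GC and length offsets, 0.79 without members that share or overlap at least 50% of their exon sequence (added after seeing the data), and 0.78 to 0.85 when each library was left out in turn. For the filters and left-out members the set of genes differed. The number of all tested genes, 15679 in the main fit, was 15965 to 16087 with a library left out and 14481 with the offsets. Otherwise the cause was not tested. Without members of identical protein 5 of 8 were higher. With tested members alone the log2 ratio of class sums was 0.82 for H3 and 0.96 for H4, against 0.70 and 0.84 with every member.

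Signs changed for genes that were not called, and for PCNA, which was called lower. With each library left out, log2 fold changes ran from -0.29 to 0.068 for H2BC15, from -0.17 to 0.66 for H4C5, from -0.096 to 0.082 for NPAT, from -0.035 to 0.015 for TUT7, from -0.0064 to 0.012 for H3-3B and from -0.063 to 0.012 for CHAF1A. With GC and length offsets they were 0.067 for H2BC15, 0.10 for NPAT, -0.22 for UPF1 (there called lower), 0.097 for TUT7 and 0.035 for PCNA. On the same genes without offsets (added after seeing the data) they were 0.0085 for NPAT, 0.015 for TUT7 and 0.0062 for CHAF1A. TUT7 was 0.0042 with DESeq2 size factors and 0.0041 with DESeq2. With at least 1 CPM NPAT was 0.0021, TUT7 0.0088 and CHAF1A 7.5e-05, and with no filter H3-3B was -0.0090. The cause was not tested.

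Replicate numbers did not pair the libraries, with correlations of -0.031, 0.077 and -0.077 between same-numbered libraries. With the replicate block 15 members were higher and 1 lower, the median was 0.86, all 16 member calls were shared with the fit without it, and the call of CCNE1 was lost (adjusted p = 0.0529). Members under the filter of about 0.247 CPM had too few counts to be tested. Whether depth, poly(A) capture or reads shared between copies limited them was not tested.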
